A study of Mus musculus with 6 samples.

Results

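Long intergenic noncoding RNAs (lincRNAs) are transcripts made from stretches of the genome between protein-coding genes. Most are spliced and carry a polyA tail like mRNAs, and many are present at low levels and in few cell types. Some loci are transcribed from both strands of the DNA, and an RNA from the strand opposite a known transcript is called antisense. Microglia are the resident macrophages of the brain, and interleukin-4 (IL-4) is the cytokine used here to drive them to the M2 state.

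On the array, 3457 of the 59709 probes were named as mouse lincRNA exons by a name beginning MM9LINCRNAEXON followed by an exon number and a sign. They stood for 1729 exons, of which 1728 had a plus and a minus probe and 1 had a minus probe only, so that 1728 plus and 1729 minus probes were measured. The members were chosen by name alone. The sign is that of the probe name; whether it marks the strand of the genome or that of the transcript, and whether the labelling kept the strand, are not given in the sources used here. The positions, genes and sequences of the exons were not analysed here.

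RNA came from cultured primary microglia shaken off mixed glial cultures of the cerebrum of newborn (P0) C57BL/6 mice. There were 3 arrays of resting cells, kept without stimulation for 24 h, and 3 of cells given IL-4 at 10 ng/ml for 24 h, each hybridized in 1 colour (Cy3). The labels do not say that the arrays of a group came from separate cultures, so p-values measure the spread between these samples, which may be technical. The label could not be set against cell type markers, since none of the 26 marker genes was among the 112 genes that an accession named on the array. In bulk RNA of this kind, fewer cells of a type and less RNA per cell cannot be told apart.

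IL-4 array 2 stood apart from the other 5 arrays. Its negative probes, designed to match no transcript, had a median processed signal (background-subtracted intensity) of 71.2, against 2.67 to 7.37 elsewhere. The scanner software called 67.7% of the spots of negative probes well above background on IL-4 array 2, against 0.417% to 11.0% on the other arrays. Detection of an exon on that array therefore carries a call that most negative spots also passed, and results that rest on it are given with and without it. The 3 resting arrays and IL-4 array 2 shared 1 scan, and IL-4 arrays 1 and 3 each had a scan of their own. Without IL-4 array 2, no scan holds both groups. In every result given without it, IL-4 and scan therefore cannot be told apart.

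The share of lincRNA exon probes detected differed more between the IL-4 arrays than between the group means. The probes well above background made up 53.1%, 31.1% and 52.5% of members on resting arrays 1, 2 and 3, and 36.0%, 73.6% and 25.9% on IL-4 arrays 1, 2 and 3. The groups overlapped, with the highest and the lowest share both on IL-4 arrays. The mean was 45.6% ± 12.5 in resting and 45.2% ± 25.1 in IL-4 cells (SD, n = 3 each; exact two-sided permutation test over arrays, p = 1, where 0.1 is the smallest p possible). Without IL-4 array 2, the IL-4 mean was 31.0% (n = 2) and lay 14.6 percentage points below the resting mean (exact permutation test, p = 0.3). With a signal above the 95th percentile of the negative probes of the same array as the criterion, resting arrays 1, 2 and 3 had shares of 44.5%, 34.3% and 41.7%, and IL-4 arrays 1, 2 and 3 had 33.8%, 22.7% and 40.9%. IL-4 array 2 then had the lowest share in place of the highest.

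**Figure D1:**
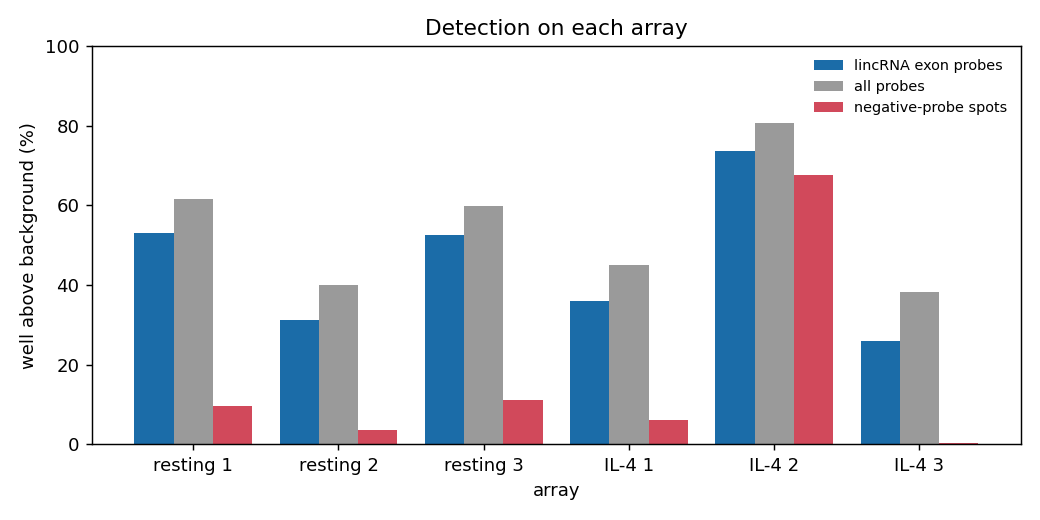
Share of lincRNA exon probes, of all probes and of negative-probe spots that were well above background (vertical axis, %) on each of the 6 arrays (horizontal axis); each bar is 1 array. The lincRNA exon bars lie below the bars of all probes on every array, and the bar of negative spots reaches 67.7% on IL-4 array 2.

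On every array the members were detected less often than the probes of the array as a whole, of which 38.2% to 80.7% were well above background. Of the members, 713 (20.6%) were detected on all 6 arrays, against 31.6% of all probes, and 552 (16.0%) on none, against 12.1%. On 1 array alone, 961 members (27.8%) were detected, against 23.3% of all probes. Of these 961 members, 809 were detected on IL-4 array 2, and the same count over all probes is not given here. After quantile normalization between arrays, tested members ran from a log2 signal of about 1.9 to 17.9, with array medians of 6.02, 6.22 and 6.12 on resting arrays and 6.08, 5.53 and 5.81 on IL-4 arrays.

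The brightest members had nearly the same signal on all 6 arrays. MM9LINCRNAEXON10151+ gave normalized log2 signals of 17.80, 17.88 and 17.88 in resting and 17.60, 17.93 and 17.88 in IL-4 cells. MM9LINCRNAEXON10465+ gave 17.07, 16.81 and 16.99 against 16.61, 16.94 and 16.93, and MM9LINCRNAEXON10315- gave 16.69, 16.34 and 16.54 against 16.60, 16.68 and 16.97. In each of these the groups overlapped. MM9LINCRNAEXON10608- gave 16.59, 16.59 and 16.60 against 16.28, 16.41 and 16.40, a log2 difference of -0.23 ± 0.32 (SE) that did not pass the test although the groups did not overlap. MM9LINCRNAEXON10504+, MM9LINCRNAEXON12032-, MM9LINCRNAEXON11881- and MM9LINCRNAEXON12118- completed the 8 brightest, and 0 of the 8 changed with IL-4 past the limits given below. No member spot was flagged as saturated (0 over all arrays).

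For all 8 of these exons the probe of the opposite sign was detected on all 6 arrays, at a far lower signal. The minus probe MM9LINCRNAEXON10151- gave 7.30, 8.85 and 9.04 on resting and 8.48, 8.88 and 8.29 on IL-4 arrays. MM9LINCRNAEXON10315+ gave 6.66, 6.86 and 6.55 on resting and 6.31, 5.54 and 7.19 on IL-4 arrays. The 2 probes of an exon differ in sequence, so a gap between their signals is not a ratio of RNA amounts. The change of this gap between conditions is free of a constant difference in probe affinity only where both signals are clear of background.

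The dimmer probe was detected more often where the brighter probe had a higher signal, in a grouping made after the values were seen. Among the 47 exons whose brighter probe had a mean log2 signal of at least 12, the dimmer probe was well above background on all 6 arrays in 23 (48.9%), with a median log2 signal of 5.79. The share was 15.9% of 69 exons with the brighter probe between 10 and 12, 13.3% of 165 between 8 and 10, 4.74% of 359 between 6 and 8, and 0.0919% of 1088 under 6. The median log2 signal of the dimmer probe was lower in the same order, at 4.64, 4.06, 3.46 and 2.97. Leaving IL-4 array 2 out of the detection count changed only the share between 6 and 8, to 5.01%. The dimmer probe cannot exceed the brighter one, so the grouping itself caps its level, and the trend does not show that the 2 signals are linked. Across exons, Spearman's rho between plus and minus signals was -0.0066 to 0.064 on the arrays other than IL-4 array 2, and 0.246 on that array.

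A small set of exons had one probe detected on every array and its partner on none. There were 87 such exons over 6 arrays (5.03% of 1728), 31 with the plus and 56 with the minus probe detected. Both probes were detected on all 6 arrays in 72 exons (4.17%), and neither was detected on any array in 62. IL-4 array 2 decided the first count. Without it, 275 exons (15.9%) had one probe on all 5 arrays and its partner on none, 117 plus and 158 minus, while 73 had both probes on all 5 and 277 had neither on any. Over the resting arrays alone the count was 422 (24.4%), and over the IL-4 arrays alone 131 (7.58%). Other pairs of the array were 340 named as mouse lincRNA loci, 608 human lincRNA pairs and 481 ultraconserved pairs. Over 6 arrays, the same count was 4.71%, 3.29% and 3.53% of these, against 5.03% of the exons. Over the 5 arrays without IL-4 array 2, it was 10.3%, 7.40% and 9.98%, against 15.9% of the exons.

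**Figure D2:**
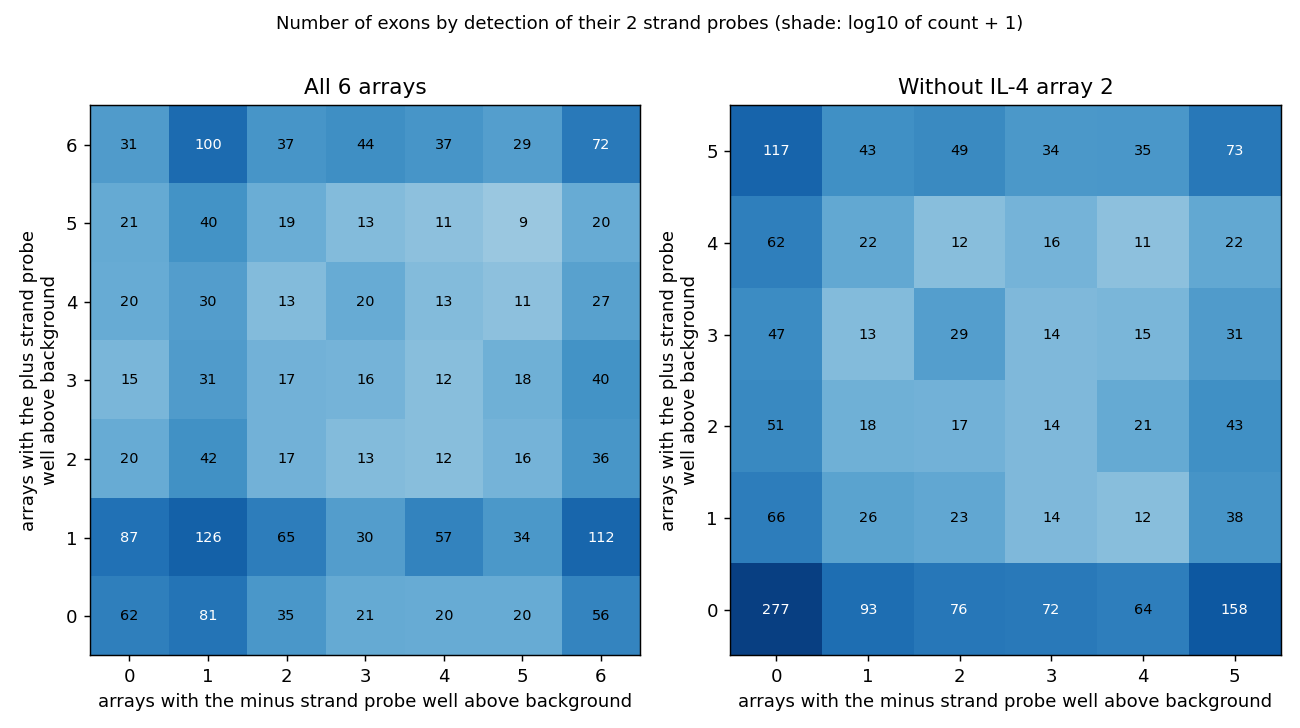
Number of exons by the number of arrays on which the minus probe (horizontal axis) and the plus probe (vertical axis) were well above background, over 6 arrays (left) and over 5 arrays without IL-4 array 2 (right); the numeral in each square is the count of exons and the shade its log10. The corners for one probe on every array and the other on none hold 31 and 56 exons on the left and 117 and 158 on the right.

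The brightest of the 87 exons reached high signals from one probe with its partner near the floor. The plus probe MM9LINCRNAEXON11220+ gave a normalized log2 signal of 14.89, 14.56 and 13.84 on resting and 14.69, 13.64 and 13.16 on IL-4 arrays, while its minus probe gave 3.49, 3.52 and 3.62, then 4.62, 2.28 and 4.05. The plus probe MM9LINCRNAEXON10210+ gave 14.48, 13.93 and 13.57 against 12.91, 13.81 and 13.38, with its partner between 2.35 and 4.57. The groups overlapped for both plus probes.

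On the minus side, MM9LINCRNAEXON11231- gave 13.82, 13.39 and 12.83 on resting and 14.14, 13.02 and 12.09 on IL-4 arrays, with its plus probe between 2.24 and 2.54. MM9LINCRNAEXON11390- gave 11.35, 11.38 and 11.37 against 10.90, 10.98 and 10.50, with a plus probe between 2.44 and 3.38. Its groups did not overlap, and its log2 difference of -0.58 ± 0.34 (SE) was short of the limits. MM9LINCRNAEXON11023+ and MM9LINCRNAEXON11754- were the next in brightness, and 0 of these 6 detected probes changed past the limits.

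Which probe of an exon was the brighter was stable over arrays for most exons. The difference of plus less minus normalized log2 signal was examined in the 1193 exons with at least one probe detected on 3 or more arrays. It had the same sign on all 6 arrays in 738 exons (61.9%), 360 with the plus and 378 with the minus probe the brighter. Without IL-4 array 2 it had the same sign on all 5 arrays in 905 (75.9%), 432 and 473. The median size of the difference was 2.94, 2.96 and 3.05 log2 units on resting arrays and 2.92, 2.03 and 2.80 on IL-4 arrays. IL-4 array 2 had the smallest.

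Across exons, the differences on any 2 of the 5 other arrays had a Spearman's rho of 0.859 to 0.959 over 10 pairs of arrays, and rho was 0.695 to 0.726 between IL-4 array 2 and each of the 5. These are descriptions across exons, which share probes and arrays and are not independent replicates. The exons with a mean difference of at least 4 log2 units in either direction numbered 312.

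**Figure D3:**
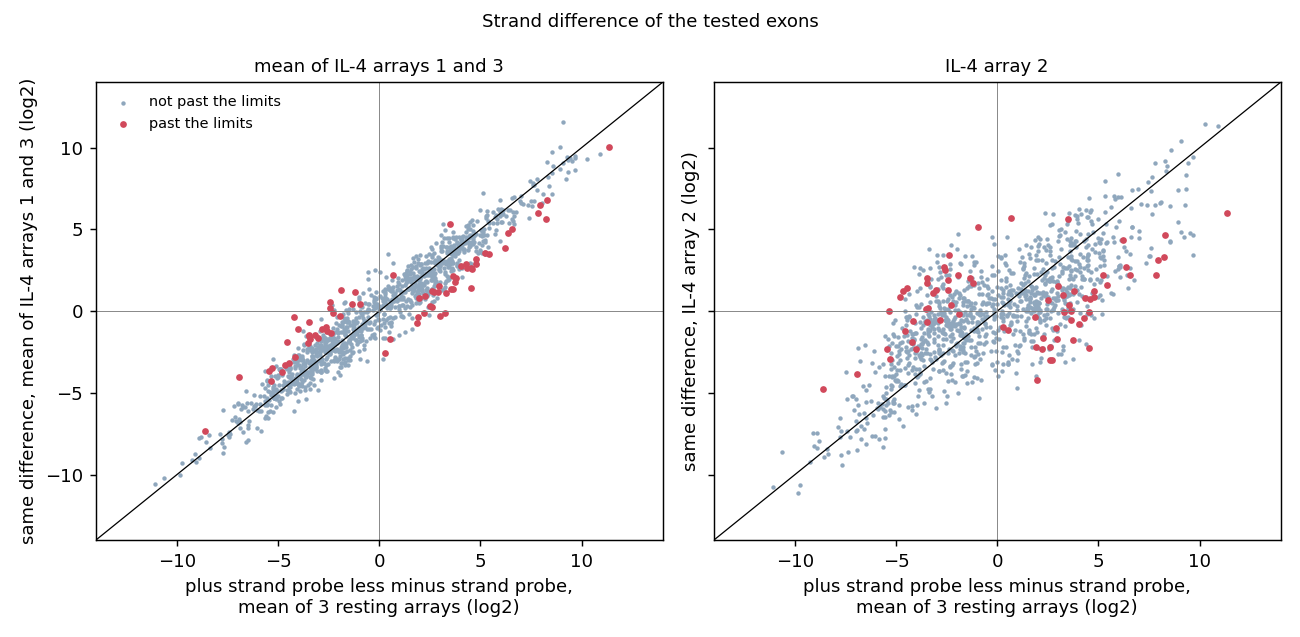
Plus less minus probe signal (log2) of 1193 tested exons, as the mean of 3 resting arrays (horizontal axis) against the mean of IL-4 arrays 1 and 3 (left, vertical axis) and against IL-4 array 2 (right); each point is 1 exon, red points passed the limits of the test over all 6 arrays, and the diagonal marks equal values. Points lie close to the diagonal on the left and are drawn toward 0 on the right, where the median size is 2.03.

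Whether IL-4 changed the level of these RNAs was tested in the 1585 members (45.8%) that were well above background on at least 3 arrays, in a limma fit over all 32992 probes of the array that passed that filter (55.3% of all probes). The limits of the study's methods were a 2-fold change or more with P at or under 0.05 before adjustment, and 100 members (6.31%) passed them, against 4.94% of all tested probes. Of the members, 88 (5.55%) were lower with IL-4, against 3.84% of all probes, and 12 (0.757%) were higher, against 1.1%. Once the limma p-values were adjusted by Benjamini-Hochberg across the tested probes, 0 members passed and the smallest adjusted p was 0.893, while 103 members (6.50%) had an unadjusted P of at most 0.05, against 5.25% of all probes.

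The groups did not overlap in 169 tested members (10.66%), against 10.9% of all tested probes. The median log2 change of the tested members was -0.37 and that of all tested probes -0.15. Without IL-4 array 2, the medians were -0.16 and 0.02, and 61 of 1328 members (4.59%) passed the limits, against 4.41% of all probes. With normexp background correction in place of the scanner's own, 2 members passed (0.126%), 1 of them among the 100, against 0.818% of all probes. Scaling each array to its 75th percentile in place of quantile normalization gave 69 members (4.35%), 49 of them lower with IL-4, against 3.85% of all probes. With the normalized values that the authors deposited, 73 of 1346 members passed (5.42%), against 5.35% of the 14055 probes those values held. The median log2 changes were then -0.36 in members and -0.27 in all these probes.

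The log2 changes of the 88 lower members ran from -2.80 to -1.02 (median -1.68) and those of the 12 higher ones from 1.05 to 2.38 (median 1.54). The 100 probes lay on 98 exons, 50 of them plus and 50 minus probes, and most were dim, with a median log2 level of 4.97 against 5.79 for all tested members. Of the 88 lower members, 49 were not well above background on IL-4 arrays 1 and 3. The lowest log2 signal called well above background was 5.03 and 5.48 on those arrays, 3.43, 4.91 and 3.59 on the resting arrays and 2.61 on IL-4 array 2. This lowest called signal was highest on IL-4 arrays 1 and 3. On IL-4 array 2 it is not a detection limit, since 67.7% of the negative spots passed the call there. The 95th percentile of the negative probes (processed signal) was highest on that array, at 211 against 13.2 to 26.5 on the others. The part of these limits in the falls was not tested.

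**Figure D4:**
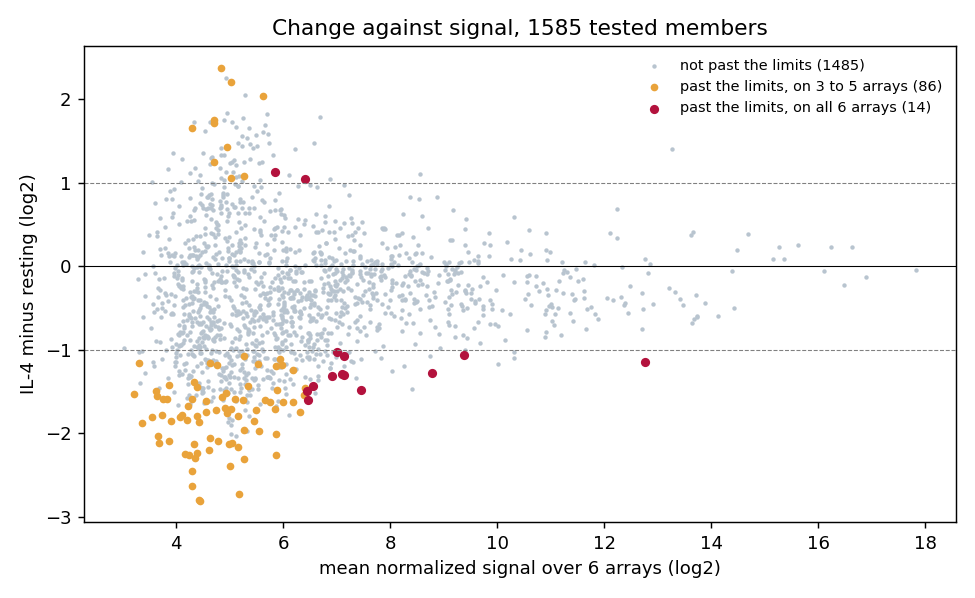
Log2 change, IL-4 less resting (vertical axis), against the mean normalized log2 signal over 6 arrays (horizontal axis) for the 1585 tested members; each point is 1 probe, orange and red points passed the limits, and dashed lines mark a fold of 2. Of the 100 probes past the limits, 86 were detected on 3 to 5 arrays and sit at the dim end, and 14 were detected on all 6.

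The 8 largest falls, among members with no overlap of groups and detection on all 3 resting arrays, were in probes near the detection limit. The plus probe MM9LINCRNAEXON11880+ had a normalized log2 signal of 5.45, 5.91 and 6.19 on resting and 3.79, 3.25 and 2.09 on IL-4 arrays, a log2 change of -2.80 ± 0.53 (SE; limma, adjusted p = 0.893). The minus probe MM9LINCRNAEXON10983- had 6.09, 5.79 and 5.59 against 4.25, 2.74 and 2.08, and MM9LINCRNAEXON10757+ had 5.86, 7.17 and 6.56 against 3.30, 3.23 and 4.91. Every IL-4 array lay below every resting array, but only IL-4 array 2 of the 3 was called well above background in each of these.

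MM9LINCRNAEXON11654- (-2.63), MM9LINCRNAEXON11461+ (-2.45), MM9LINCRNAEXON11842+ (-2.39) and MM9LINCRNAEXON10655+ (-2.29) had the same pattern of detection, with the log2 change in brackets. MM9LINCRNAEXON11571- had 5.13, 5.88 and 5.12 on resting and 4.33, 2.48 and 2.54 on IL-4 arrays, and was well above background on none of the latter. Each undetected array was then set at the lowest signal called well above background there, or at the probe's own signal if higher. On this reckoning MM9LINCRNAEXON11571- was 2.01-fold lower with IL-4, and 1.09-fold without IL-4 array 2. MM9LINCRNAEXON11880+ was 2.40-fold lower over all 6 arrays, where its fitted fold was 6.98, and 1.51-fold lower without IL-4 array 2. MM9LINCRNAEXON10757+ had the largest such figure of the 8, 3.88-fold, or 2.43-fold without IL-4 array 2. The figures over all 6 arrays are not lower bounds on the fold, since most negative spots passed the call on IL-4 array 2. The 8 probes were also chosen for large falls and for detection on all 3 resting arrays.

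Before normalization the falls did not extend to IL-4 array 2, where each of the 8 probes was above its lowest resting array. MM9LINCRNAEXON11880+ had processed signals of 48.8, 33.6 and 63.5 in resting cells and of 9.44, 73.6 and 6.61 with IL-4. On IL-4 array 2 its 73.6 was close to the median of 71.2 that the negative probes had there. The 8 probes had processed signals of 31.9 to 88.4 on that array, all below the 95th percentile of its negative probes, 211. Among the 88 lower members, 85 had a lower normalized signal on IL-4 array 2 than on every resting array. The part of the high negative-probe signal in these normalized falls was not tested.

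Rises were fewer, and 3 members past the limits had no overlap of groups and were detected throughout at least one group. MM9LINCRNAEXON11759+ had a normalized log2 signal of 5.05, 5.84 and 4.94 on resting and 6.05, 6.92 and 6.26 on IL-4 arrays, a log2 change of 1.13 ± 0.44 (SE). MM9LINCRNAEXON11771- had 4.64, 5.11 and 4.46 against 5.58, 6.15 and 5.71, and MM9LINCRNAEXON11906- had 5.66, 6.07 and 5.91 against 7.05, 7.21 and 6.53. All 3 were detected on every IL-4 array, and MM9LINCRNAEXON11771- alone was undetected on a resting array, resting array 2. None of the 3 passed the limits without IL-4 array 2, where their log2 changes were 0.97, 1.01 and 1.00.

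**Figure D5:**
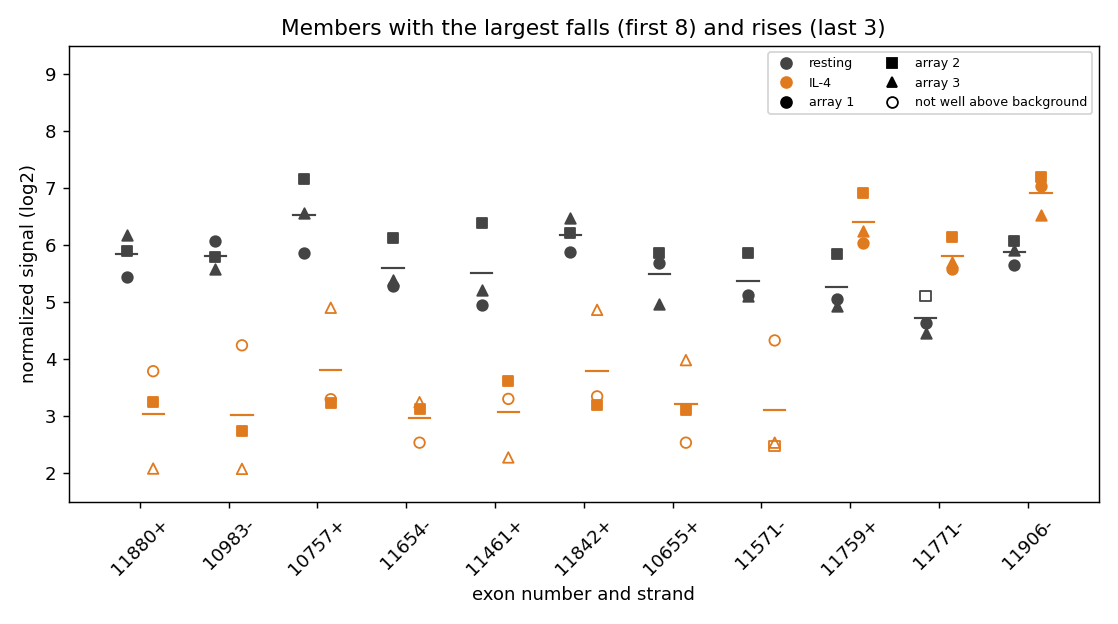
Normalized log2 signal (vertical axis) of the 8 members with the largest falls and the 3 with the largest rises (horizontal axis, exon number and sign) on resting (grey) and IL-4 (orange) arrays; marker shapes give the array number, open markers are not well above background, and lines are group means. In the 8 falls, 7 have a filled IL-4 marker for array 2 alone and MM9LINCRNAEXON11571- has none.

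Among the 713 tested members detected on all 6 arrays, a subset looked at after the values were seen, 14 passed the limits (1.96%), against 1.89% of all probes detected on all 6. Of these 14, 12 were lower and 2 higher with IL-4. Fitted on such probes alone, 23 of the 713 passed (3.23%), 21 lower and 2 higher, against 2.6% of all. The median log2 change was -0.30 in these 713 members and -0.07 in all probes so detected. The brightest was MM9LINCRNAEXON10763-, with 13.84, 13.35 and 12.82 on resting and 11.87, 12.87 and 11.82 on IL-4 arrays, a log2 change of -1.15 whose groups overlapped. MM9LINCRNAEXON11556+ had 10.20, 9.78 and 9.75 against 8.26, 9.54 and 8.73, a change of -1.07, and MM9LINCRNAEXON10494- had 9.70, 9.71 and 8.86 against 8.13, 8.68 and 7.61, a change of -1.28. In both, every IL-4 array was below every resting array after normalization. Before it, IL-4 array 2 lay above resting arrays 2 and 3 in both. The processed signal there was 1017 for MM9LINCRNAEXON11556+, against 1546, 574 and 826 on resting arrays. For MM9LINCRNAEXON10494- it was 596, against 1096, 550 and 441. Without IL-4 array 2, the log2 changes were -1.48 for MM9LINCRNAEXON10763-, -1.45 for MM9LINCRNAEXON11556+ and -1.61 for MM9LINCRNAEXON10494-.

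Both probes of an exon passed the limits in 2 exons, and in both exons both probes were lower with IL-4. The minus probe MM9LINCRNAEXON10306- had 7.81, 8.63 and 8.16 on resting and 6.21, 7.01 and 6.96 on IL-4 arrays, a log2 change of -1.48 ± 0.42 (SE). The plus probe MM9LINCRNAEXON10306+ had 6.62, 8.44 and 6.54 against 5.19, 5.82 and 6.11, a log2 change of -1.49 ± 0.61. Both were detected on all 6 arrays and the groups overlapped in neither after normalization. Before it, IL-4 array 2 lay within the range of the resting arrays for both. The minus probe had a processed signal of 275 there, against 289, 255 and 264 on resting arrays. The plus probe had 183, against 117, 222 and 81.4. Without IL-4 array 2, the log2 changes were -1.75 for the minus and -1.69 for the plus probe. MM9LINCRNAEXON11565+ and MM9LINCRNAEXON11565-, the other pair, were detected on 4 and 3 arrays and changed by -1.75 and -1.59. When each array was left out in turn, 18 members passed the limits in all 6 fits, 17 lower and 1 higher (MM9LINCRNAEXON11575-). MM9LINCRNAEXON10306- was the only one of the 18 that was detected on all 6 arrays. The same count over all tested probes is not given here, so the 18 cannot be set against the array as a whole. These fits also share most of their arrays with the fit over all 6.

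Whether IL-4 shifted the balance of the 2 probes of an exon was tested on the difference of plus less minus signal, in a limma fit over the 1871 pairs of the array named by strand. It passed the same limits in 72 of the 1193 exons (6.04%), against 6.31% of all pairs, 33 toward the plus and 39 toward the minus probe. After adjustment 0 exons passed in limma, with a smallest adjusted p of 0.686, and the count with an unadjusted P of at most 0.05 was also 72. Without IL-4 array 2, 40 of 1076 exons passed (3.72%), against 4.77% of all pairs. In 51 of the 72, one of the probes was well above background on no array other than IL-4 array 2. Among the 72 tested exons with both probes detected on all 6 arrays, 0 passed the limits and 0 had an unadjusted P of at most 0.05, while 7 had a fold of at least 2. The sign of the difference was one way on all 3 resting arrays and the other way on all 3 IL-4 arrays in 5 exons.

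The exons with the largest fitted shifts, 4 in each direction, all had one probe that was well above background on none of the 3 resting arrays, and in 6 of the 8 that probe was detected on IL-4 array 2 alone. The signals of such a probe are below detection, so the sizes of these shifts were not measured, and the differences are given as the normalized signals stand. In MM9LINCRNAEXON11362 the difference was 3.37, 5.67 and 4.62 on resting and 0.54, -2.25 and 2.35 on IL-4 arrays. Its minus probe MM9LINCRNAEXON11362- was detected on IL-4 array 2 alone, where it had a log2 signal of 7.62. MM9LINCRNAEXON10106 and MM9LINCRNAEXON10916, also shifted toward the minus probe, had minus probes detected on that array alone.

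MM9LINCRNAEXON10230 had differences of 7.71, 9.38 and 7.67 on resting and 5.79, 3.30 and 5.54 on IL-4 arrays. Its plus probe MM9LINCRNAEXON10230+ was detected on all 6 arrays, with log2 signals of 11.04, 11.67 and 11.01 on resting and 11.34, 11.01 and 10.52 on IL-4 arrays, and the groups overlapped. The minus probe MM9LINCRNAEXON10230- was detected on IL-4 arrays 1 and 2, at 5.55 and 7.71, and on none of the other 4 arrays, where it had 3.32, 2.29 and 3.35 on resting arrays and 4.98 on IL-4 array 3.

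Toward the plus probe, MM9LINCRNAEXON11571 had differences of -1.74, -3.31 and -2.31 on resting and -0.95, 1.93 and 2.05 on IL-4 arrays. Its plus probe was detected on IL-4 array 2 alone and its minus probe on the 3 resting arrays alone, so that on no array were both detected. MM9LINCRNAEXON10094 had differences of -3.88, -4.01 and -4.78 on resting and 1.14, -1.88 and -1.84 on IL-4 arrays. Its minus probe was detected on all 6 arrays and its plus probe MM9LINCRNAEXON10094+ on IL-4 array 1 alone, at 6.94. MM9LINCRNAEXON11240 and MM9LINCRNAEXON11371 had plus probes detected on IL-4 array 2 alone. Of the 72 exons, 11 passed in every fit that left out one array, and the same count over all pairs is not given here.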

How the data were processed

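For each of 6 one-colour arrays, the authors deposited spot intensities from Agilent Feature Extraction (10.7.3.1), where the processed signal is background-subtracted but not normalized between arrays. The log2 values that the authors deposited, quantile normalized in GeneSpring GX according to the methods, held 1346 of the members and served as an alternative. Members were the probes with MM9LINCRNAEXON in their name that are not control spots. The members and lists were chosen with earlier results of these data known.

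Outlier-flagged spots (15 among members) were set to missing, log2 processed signals of all probes were quantile normalized, and spots of a probe were averaged. Tested probes were well above background on 3 or more arrays and had 2 or more unflagged values in each group. Tests used limma 3.58.1 in R 4.3.3, fitting condition alone, adjusted over all probes or all strand pairs tested. Strand pairs needed one probe passing the same detection rule. The number of arrays limits the precision. The labels name no pairing of arrays by replicate number, and the main fit used none. Correlations of deviations between same-numbered arrays were -0.22, 0.14 and -0.09, which with so few arrays cannot show whether the cultures were paired.

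Probes were named by rule: the 8 largest falls and rises past the limits with no overlap of groups and detection on all 3 arrays of a group, the 8 brightest, the 6 brightest with one probe detected and its partner not, and the 4 largest strand shifts each way. Others are said to have been chosen after their values were seen. MM9LINCRNAEXON10306, MM9LINCRNAEXON11565, MM9LINCRNAEXON11575-, MM9LINCRNAEXON10763-, MM9LINCRNAEXON11556+ and MM9LINCRNAEXON10494- are of that kind. The fits were tested on simulated data in which 200 probes or strand pairs changed by 2 log2 units. The probe fit recovered 85.5% of the changed probes and also called 1441 unchanged ones among 32992. The strand fit recovered 53.5% of the changed pairs and called 102 unchanged ones among 1871. Alternatives covered normalization, background correction, filters, outlier flags, leaving out each array, the authors' values, replicate and scan blocks, an intensity trend, the methods' t-test and the detection rule.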

Additional observations from a re-analysis of the deposited data

How the results depend on the processing

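The count of 100 members past the limits was 2 with normexp background correction (run on the median spot signal with an offset of 50, since the mean was not used here), 204 with no filter on dim probes, 23 when fitted on probes detected on all 6 arrays, 53 with the methods' t-test, and 579 both with the scan as a block and within the shared scan, where IL-4 array 2 is the single IL-4 array and is assumed to vary like the others. The count was 38 to 255 when each array was left out in turn, and the cause was not tested. The lowest was without resting array 3 (2.93% of tested members, against 2.39% of all tested probes) and the highest without IL-4 array 1 (16.7% against 11.8%). With 75th percentile scaling the count was 69 (4.35% against 3.85%), of which 71.0% were lower with IL-4 against 88% of the 100. With a replicate block it was 101 (6.37% against 4.85%), of which 79 were shared. The median log2 change of tested members was -0.13 with normexp, -0.076 with no filter, and -0.65 with the scan as a block and within the shared scan, and it was -0.55 to -0.16 when each array was left out. The count of 72 exons with a changed strand difference was 173 with 75th percentile scaling, 25 with normexp, 40 when one probe had to be detected on all 6 arrays, 474 with the scan as a block, 473 within the shared scan, 85 with a replicate block and 24 to 182 when each array was left out, the lowest without resting array 1, the highest without IL-4 array 1 and 40 without IL-4 array 2. The count of 87 exons with one probe detected on every array and the other on none was 275 without IL-4 array 2, 422 on the resting arrays, 131 on the IL-4 arrays, 414 at 5 or more against 1 or fewer arrays, and 91 to 275 when each array was left out. The difference in the share of members detected, IL-4 less resting, was -0.376 percentage points, and leaving out each array gave -14.6 to 9.25, above 0 without resting array 1 (3.39), resting array 3 (3.10), IL-4 array 1 (4.20) and IL-4 array 3 (9.25). For the 11 members with the largest falls and rises, 146 of 174 values under other settings kept the direction and passed the limits, and 28 kept the direction and fell short, 11 of these with normexp. A replicate block changed the call of 1 of the 11, MM9LINCRNAEXON11906-. After adjustment, 0 members and 0 exons passed under the settings other than the scan as a block and the shared scan. Those settings rest on IL-4 array 2 as the single IL-4 array.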
